A study of Mus musculus with 4 samples.

Results

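The CCN genes Ccn1 to Ccn5, known by the older symbols Cyr61, Ctgf, Nov, Wisp1 and Wisp2, were examined with Ankrd1 and Amotl2 in mouse embryonic fibroblasts with and without focal adhesion kinase (FAK), a tyrosine kinase at sites of cell attachment to matrix. The 7 genes were chosen by name, with earlier results of these data known. Every probe set (the group of short probes that reports a transcript) paired with one of them alone was used. This gave 13 of the 45101 probe sets in the table. Each of the 7 genes was represented, among 18194 genes with a probe set of their own, and all 13 probe sets passed the level filter described with the processing.

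The cells came from FAK-/- (knockout) and FAK+/+ (wild-type) mice and were grown in 10% serum to passage 5. At 50% confluence they were starved of serum for 24 h, and endothelin-1 (ET-1), a vasoactive peptide sensed by G protein-coupled receptors, was then added or left out for a further 24 h. The 4 groups were the ET-1-treated knockout, the untreated knockout, ET-1-treated wild type and untreated wild type, all starved alike, with 1 Affymetrix Mouse Genome 430 2.0 array each. The labels give no dose of ET-1, no count of embryos or cultures behind an array, and no second line of either genotype, so genotype and line cannot be told apart.

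CCN proteins are secreted into the matrix, where they bind integrins, proteoglycans and growth factors rather than serving as structural fibres. Ccn1 and Ccn2 are textbook targets of YAP and TAZ, coactivators that have no DNA-binding domain and act through TEAD transcription factors. The Hippo kinases hold YAP and TAZ in the cytoplasm, while spreading and tension on stiff matrix favour their entry into the nucleus. Ankrd1 and Amotl2 are further genes widely read as a measure of YAP activity.

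Sequence upstream of the transcription start was held for 3 of the 7 genes, Ccn1, Ankrd1 and Amotl2, in RefSeq promoters of build GRCm38.p6. It is shown because these genes share the core letters of the TEAD motif, GGAATG or its reverse complement CATTCC, which are printed in capitals. Each run covers the 250 bases before the start and is written in the direction of the gene. The Ccn1 window is chr3:145649986-145650235 on the minus strand, the Ankrd1 window chr19:36119845-36120094 on the minus strand, and the Amotl2 window chr9:102717554-102717803 on the plus strand.
Ccn1: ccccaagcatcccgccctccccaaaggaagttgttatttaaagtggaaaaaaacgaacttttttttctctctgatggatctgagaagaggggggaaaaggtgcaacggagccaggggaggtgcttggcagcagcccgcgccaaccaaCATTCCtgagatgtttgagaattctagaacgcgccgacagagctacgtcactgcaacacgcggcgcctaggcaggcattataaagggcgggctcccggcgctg
Ankrd1: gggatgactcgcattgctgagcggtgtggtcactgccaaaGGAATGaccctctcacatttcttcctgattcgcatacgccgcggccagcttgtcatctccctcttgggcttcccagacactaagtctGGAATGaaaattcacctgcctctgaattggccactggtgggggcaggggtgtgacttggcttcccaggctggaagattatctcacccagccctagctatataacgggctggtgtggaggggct
Amotl2: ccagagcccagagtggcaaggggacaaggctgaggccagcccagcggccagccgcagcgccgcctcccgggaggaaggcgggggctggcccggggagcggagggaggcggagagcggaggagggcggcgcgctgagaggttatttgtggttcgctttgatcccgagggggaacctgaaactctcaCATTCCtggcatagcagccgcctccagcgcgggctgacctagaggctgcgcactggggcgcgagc
Counted back from the start, with the last base before it at -1, the letters CATTCC lay from -103 to -98 in Ccn1 and from -65 to -60 in Amotl2. Ankrd1 held GGAATG from -210 to -205 and again from -123 to -118. Over all 32851 windows of this length, 12.6% held the 6 letters on either strand. The CArG box, the motif of serum response factor, was in 1.47% of windows, and TGAGTCA or TGACTCA, the AP-1 motif, in 4.46%, and neither was in these 3 windows. A match of letters does not show that a factor binds there.

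The ET-1-treated wild-type array stands apart in the controls for RNA quality. On the log2 scale Gapdh read 3.79 higher at its 3' than at its 5' probe set there, against 0.85 to 0.90 in the other 3 arrays, and for Actb the gap was 1.81, against 0.66 to 1.30. Labelling from the poly-A tail loses signal toward 5' ends first. That array enters every difference given here except the untreated genotype difference and the ET-1 difference within the knockout. It also counted in the level filter and in the choice of each gene's probe set.

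In cells without FAK, Ccn1, Ccn2, Ccn4 and Ankrd1 fell, and Ccn3 was above the level filter in wild type alone. By limma, averaged over treatments, 5 of 7 genes, Ccn3 included, had an adjusted p under 0.05 and were lower in the knockout, and 0 were higher. Ccn3 entered the fit only because wild type was high, so its call is a description. Of the other 6 genes, 4 passed. Of all 12290 genes tested, 7.05% passed as lower and 6.6% as higher. Such shares are no test of the members, which were chosen with earlier results of these data known. When the 24625 probe sets above the filter, without controls, were fitted together by limma, 5 of the 13 passed as lower, against 2.69% of those fitted. They were both of Ccn3, both of Ankrd1 and 1448594_at of Ccn4. At the level of single arrays, both knockout arrays read below both wild-type arrays for 6 of the 7 genes, all but Amotl2, which held for 29.3% of all genes. Ccn3 is counted in this and in the probe set count, and its part in them is again a description. Each group is 1 array, so a difference between 2 arrays has no replicate check. The limma fit has 1 residual degree of freedom, the genotype by treatment term, so its standard error (SE) does not measure a spread between cultures. In such bulk samples, fewer cells of a type that makes a transcript and less transcript per cell cannot be told apart.

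**Figure D1:**
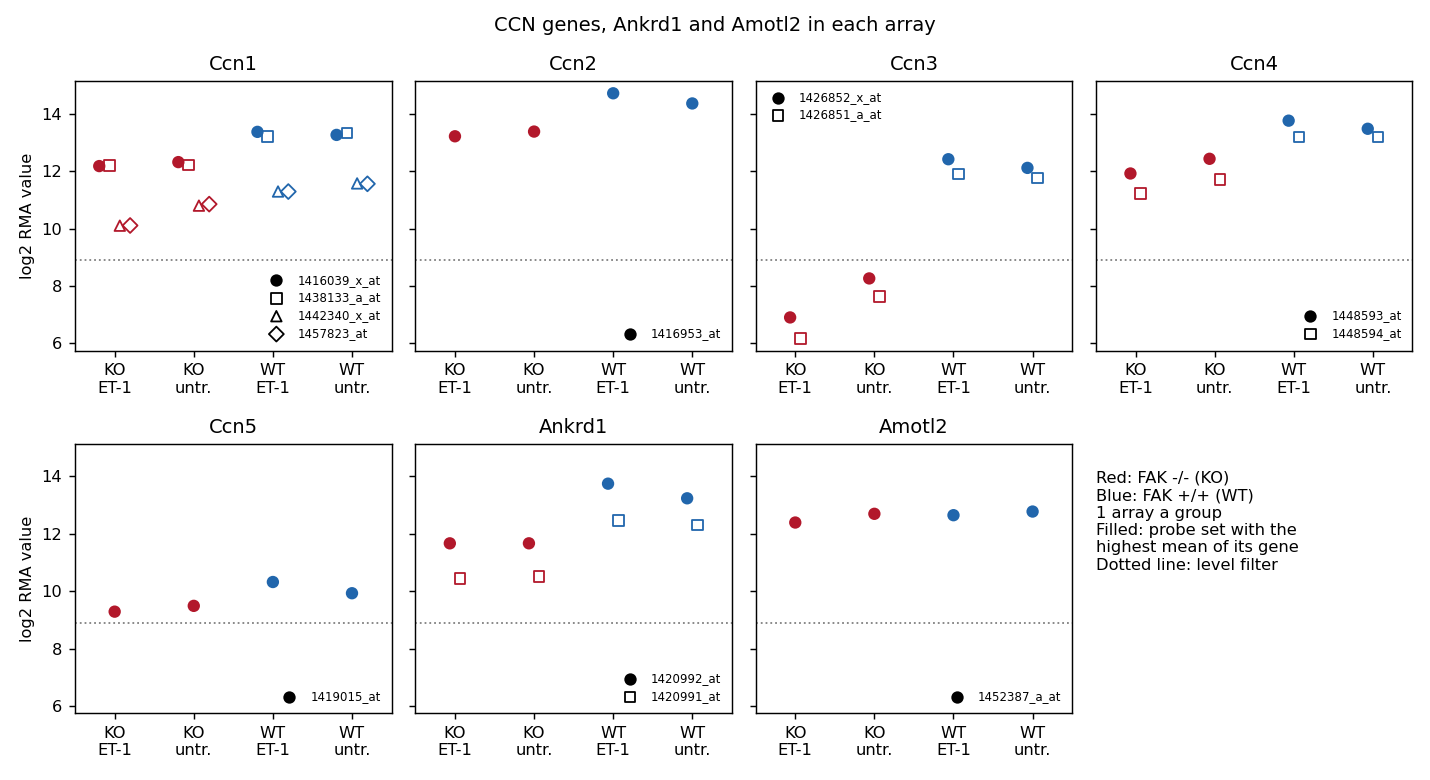
The log2 RMA value of each of the 13 probe sets (vertical axis) in the 4 arrays (horizontal axis), with 1 panel a gene. Knockout arrays (red) lie below wild-type arrays (blue) for every probe set except that of Amotl2, and Ccn3 lies below the level filter (dotted line) in both knockout arrays.

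Ccn2, a matricellular protein induced by TGF-beta and mechanical load, is read by 1 probe set. It had log2 values of 13.22 in the ET-1-treated and 13.38 in the untreated knockout, against 14.71 in ET-1-treated and 14.36 in untreated wild type. Both knockout arrays lay below both wild-type arrays, by 2.82-fold after ET-1 and 1.97-fold in untreated cells. By limma the difference was -1.24 ± 0.17 (SE, adjusted p = 0.0222). The wild-type values approached the array maxima of 15.21 to 15.24, and whether this understates the difference was not tested.

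Ccn1, a relative of Ccn2 that supports adhesion and migration through integrins, is read by 4 probe sets. The brightest, 1416039_x_at, gave log2 values of 12.18 and 12.32 in the ET-1-treated and untreated knockout, against 13.37 and 13.26 in ET-1-treated and untreated wild type. Its limma difference was -1.07 ± 0.16 (SE, adjusted p = 0.0300). The suffix x marks a probe set with probes that can also match other transcripts. All 4 probe sets were lower in both knockout arrays than in both wild-type arrays. After ET-1 they were 2.03-fold to 2.28-fold lower in the knockout, whereas in untreated cells 1438133_a_at was 2.17-fold lower and the other 3 were 1.63-fold to 1.93-fold lower.

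Ccn3, which in many cell types restrains proliferation, is read by 2 probe sets. Its brightest, 1426852_x_at, gave log2 values of 6.91 and 8.26 in the ET-1-treated and untreated knockout, against 12.42 and 12.12 in ET-1-treated and untreated wild type. Its other probe set, 1426851_a_at, gave 6.17 and 7.63 in the ET-1-treated and untreated knockout, against 11.90 and 11.77 in ET-1-treated and untreated wild type. Both knockout arrays were below the level filter of 8.90 with both probe sets, so the gene passed the filter through wild type alone and had to differ. Its folds rest on dim knockout values and are uncertain, the more so as the lowest values in the table are higher than usual after RMA. In untreated cells the 2 probe sets were 14.4-fold and 17.6-fold lower in the knockout, and after ET-1 45.6-fold and 52.9-fold lower.

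Ccn4, first described as a gene induced by Wnt1, had log2 values of 11.92 and 12.43 in the ET-1-treated and untreated knockout, against 13.76 and 13.48 in ET-1-treated and untreated wild type, with probe set 1448593_at. Both knockout arrays were lower, and by limma the difference was -1.44 ± 0.25 (SE, adjusted p = 0.0382). The second Ccn4 probe set, 1448594_at, was 3.91-fold lower in the knockout after ET-1 and 2.79-fold lower in untreated cells, against 3.58-fold and 2.06-fold with the first. Ccn5, which lacks the C-terminal cystine knot of the other CCN proteins, had 9.29 and 9.49 in the ET-1-treated and untreated knockout, against 10.32 and 9.93 in ET-1-treated and untreated wild type. Its groups did not overlap, yet by limma it did not pass, at -0.74 ± 0.17 (SE, adjusted p = 0.0753). With array medians subtracted it did, at an adjusted p of 0.0249 by limma, in a range of 0.0249 to 0.136 over all settings.

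The sixth CCN gene, Ccn6, which is no member here, read 7.15 and 7.10 in the ET-1-treated and untreated knockout, against 7.17 and 7.12 in ET-1-treated and untreated wild type. These log2 values were below the filter in every array, and no difference was tested.

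Ankrd1 encodes an ankyrin-repeat protein of the nucleus and the sarcomere that is abundant in heart muscle. Its brightest probe set, 1420992_at, gave log2 values of 11.67 in both the ET-1-treated and the untreated knockout, against 13.75 and 13.24 in ET-1-treated and untreated wild type. The second, 1420991_at, gave 10.45 and 10.51 in the ET-1-treated and untreated knockout, against 12.46 and 12.30 in ET-1-treated and untreated wild type. Both probe sets separated the genotypes without overlap, and by limma the brightest had a difference of -1.82 ± 0.20 (SE, adjusted p = 0.0153). Of 8 markers of heart and skeletal muscle, 4 (Myh6, Myh7, Myog and Ryr2) were below the filter in every array. The other 4, Tnnt2, Actc1, Nkx2-5 and Myod1, passed the filter, Actc1 through wild type alone. By limma 0 of these 4 passed in either direction. Tnnt2 read 12.26 and 11.84 in the ET-1-treated and untreated knockout, against 11.86 and 11.02 in ET-1-treated and untreated wild type.

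Amotl2 encodes an angiomotin, a junctional protein that binds YAP and keeps it out of the nucleus, and is itself a YAP target. It had log2 values of 12.40 and 12.70 in the ET-1-treated and untreated knockout, against 12.65 and 12.78 in ET-1-treated and untreated wild type. The untreated knockout lay above ET-1-treated wild type, so the groups overlapped. By limma the difference was -0.17 ± 0.16 (SE, adjusted p = 0.578), and the p does not show that the genotypes were alike.

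**Figure D2:**
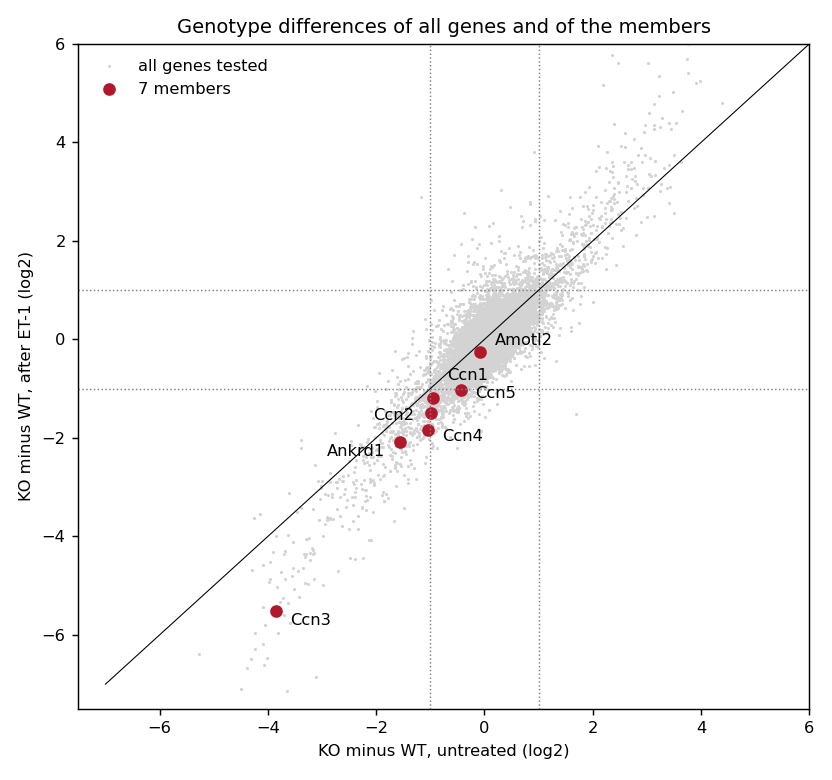
Knockout minus wild-type difference (log2) in untreated cells (horizontal axis) and after ET-1 (vertical axis) for all 12290 genes tested (grey) and the 7 members (red), with the diagonal of equal differences and dotted lines at 2-fold. The members lie at or below 0 on both axes and below the diagonal, with Ccn3 far from the others and Amotl2 near the origin.

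After ET-1, 6 of the 7 genes were at least 2-fold lower in the knockout, where 6.53% of all genes were. In untreated cells 3 were, namely Ccn3, Ccn4 and Ankrd1, against 4.59% of all genes. The threshold splits close values there, since Ccn2 (-0.98) and Ccn1 (-0.95) lay just short of it. Over the 7 genes the median difference was -1.50 after ET-1 and -0.98 in untreated cells, beside medians of -0.03 and 0.02 over all genes. By probe set, 12 of 13 after ET-1 and 7 of 13 in untreated cells were at least 2-fold lower, and all 13 were below 0 in both states, as were 53.5% of all genes after ET-1. Ccn3, above the filter in wild type alone, enters all these counts and medians.

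The untreated genotype difference is not taken from the ET-1-treated wild-type array with the wide 3' to 5' gap, though that array counted in choosing probe sets. In that difference all 7 genes were below 0, Amotl2 only at -0.08, as were 46.9% of all genes. The part of the wide gap in the members' values was not tested. Among 5238 genes with at least 2 probe sets above the filter, the median gap between the brightest 2 in the genotype difference was 0.31 after ET-1 and 0.18 in untreated cells. The percentile 90 of this gap was 0.99 after ET-1 and 0.65 in untreated cells.

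After ET-1 the knockout had lower values than without it for all 7 genes, as for 55.3% of all genes, and the median of the members was -0.20, beside -0.02 over all genes. Ccn3 was the 1 member at 2-fold or more, at -1.36 and -1.45 with its 2 probe sets, between readings that were all below the filter. Of all genes, 0.277% were at least 2-fold lower after ET-1 in the knockout. Ccn4 followed at -0.51 and -0.48, Amotl2 at -0.30, Ccn5 at -0.20, Ccn2 at -0.16 and Ankrd1 at -0.00 and -0.06.

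The 4 Ccn1 probe sets disagreed on ET-1 in the knockout. The bright pair, 1416039_x_at and 1438133_a_at, gave -0.14 and -0.02, whereas 1442340_x_at and 1457823_at gave -0.70 and -0.74. Both members of the dimmer pair are annotated to the same source transcript, so they are not independent readings.

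In wild type, 0 of the 7 genes reached 2-fold after ET-1, where 1.17% of all genes were at least 2-fold lower and 0.781% at least 2-fold higher. Ankrd1 had the highest value at 0.51 with its brightest probe set and 0.16 with the other. Ccn5 was at 0.39, Ccn2 at 0.35, Ccn3 at 0.30 and 0.13, and Ccn4 at 0.28 and 0.00. Amotl2 was at -0.13, and Ccn1 had 0.11 with its brightest probe set and -0.12 to -0.28 with the other 3. Markers of other cell types were lower in the same comparison, with 4 of 7 mesothelial and 2 of 7 epithelial markers at least 2-fold lower after ET-1 in wild type, among them Upk3b (-3.51), Krt14 (-3.24) and Krt18 (-3.07). In the knockout 0 of either list reached 2-fold, and the part of these markers in the members' values was not tested.

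**Figure D3:**
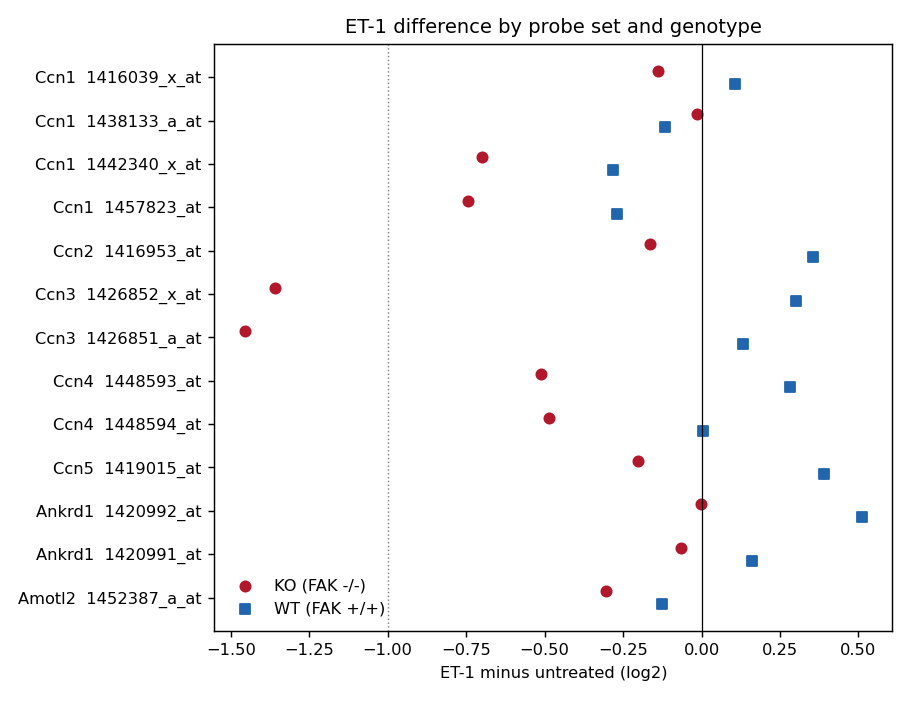
ET-1 minus untreated difference (log2, horizontal axis) for each of the 13 probe sets, in the knockout (red circles) and in wild type (blue squares), with a dotted line at 2-fold lower. All knockout points lie at or left of 0, 9 of 13 wild-type points lie right of 0, and both Ccn3 probe sets lie beyond 2-fold in the knockout.

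Averaged over genotypes, 0 of the 7 genes and 0 of all 12290 genes passed limma for ET-1, with a lowest adjusted p of 0.780 over all genes. At an unadjusted p under 0.05 there were 0 members and 643 genes. The difference of ET-1 differences, knockout minus wild type, was below 0 for all 7 genes with the brightest probe set and for 59.7% of all genes. By probe set 12 of 13 were below 0, and 1438133_a_at of Ccn1 was at 0.10. Ccn3 alone passed 2-fold, at -1.66, a value that rests on knockout readings below the filter, where 1.31% of all genes were at least 2-fold lower and 1.59% at least 2-fold higher. With the brightest probe set 6 of the 7 genes, all but Amotl2, were below 0 in the knockout and above 0 in wild type, as were 27.8% of all genes. For Ccn1 this did not hold in wild type with quantile normalisation (-0.02) or with the mean of its probe sets (-0.14). The Ccn3 value has no test, because the genotype by treatment term is the only residual of the fit.

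Transcripts of the factors that read the pathway out did not pass the test. Of 8 genes for YAP, TAZ, TEAD factors and their cofactors, 0 were lower and 0 higher by limma, and their median was -0.01 after ET-1 and -0.06 in untreated cells. Beside this and the lists below, 7.05% of all genes passed as lower and 6.6% as higher. Yap1 differed by -0.19 ± 0.14 (SE, adjusted p = 0.456, limma) and Wwtr1, which encodes TAZ, by -0.13 ± 0.15. Tead1 differed by 0.45, Tead2 by 0.21, Tead3 by -0.05, Tead4 by 0.30 and the cofactor Vgll3 by -0.05. These are transcript levels, and the location or phosphorylation of YAP protein was not measured.

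Among genes of the Hippo pathway upstream of YAP, 22 of 23 measured passed the filter. By limma 3 fell and 0 rose, beside 7.05% and 6.6% of all genes. They were the giant cadherin Fat4 (-2.04 ± 0.17, SE), its ligand Dchs1 (-0.84 ± 0.13) and Amot (-1.85 ± 0.17, adjusted p = 0.0110), the founding angiomotin and a relative of Amotl2. Fat4 read 8.02 and 8.33 in the ET-1-treated and untreated knockout, both below the filter. It passed the filter through wild type alone, so its call is a description. Amot had log2 values of 11.51 and 11.51 in the ET-1-treated and untreated knockout, against 13.49 and 13.24 in ET-1-treated and untreated wild type. The list median was -0.21 after ET-1 and -0.04 in untreated cells. The kinase gene Stk3 was not analysed here.

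Other genes used as readouts of YAP in human cancers moved both ways. Of 18, 17 passed the filter, 4 fell and 1 rose by limma, with a median of -0.27 after ET-1 and -0.11 in untreated cells. The kinase Nuak2 (-1.17 ± 0.10, SE), tissue factor F3 (-1.10 ± 0.17), the RNA-binding protein Rbms3 (-1.06 ± 0.17) and the Arf regulator Asap1 (-0.88 ± 0.16) fell. Igfbp3, which binds insulin-like growth factors, rose by 3.63 ± 0.11 (adjusted p = 0.00556, limma). It had log2 values of 11.52 and 12.42 in the ET-1-treated and untreated knockout, against 7.77 and 8.91 in ET-1-treated and untreated wild type.

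Serum response factor (SRF) and its coactivators, the MRTF proteins, also act on contractile genes in cells under tension. Of 15 genes of this axis 6 fell and 0 rose by limma, and the median was -0.63 after ET-1 and -0.59 in untreated cells. Myl9 (-4.88 ± 0.55, SE), Actg2 (-4.11 ± 0.45), Cnn1 (-2.65 ± 0.23), Fhl2 (-1.37 ± 0.18), Tagln (-0.98 ± 0.12) and Acta2 (-0.44 ± 0.07) fell. The factors themselves did not pass, with Srf at -0.30 ± 0.18, Mrtfa at -0.55 ± 0.19 and Mrtfb at 0.30 ± 0.15 (adjusted p = 0.368, 0.149 and 0.279, limma).

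Cell-surface partners of CCN proteins were measured with 10 genes, of which 2 fell and 1 rose by limma, beside 7.05% and 6.6% of all genes. The endocytic receptor Lrp1 (-1.21 ± 0.19, SE) and the receptor Notch1, a known partner of Ccn3 (-1.11 ± 0.13), fell, and the integrin chain Itgb3, which pairs with Itgav to bind several CCN proteins, rose by 0.84 ± 0.12 (adjusted p = 0.0249, limma). Itgav differed by -0.28. The list median was -0.16 after ET-1 and -0.33 in untreated cells.

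Of 11 genes of the TGF-beta axis, which induces Ccn2, 0 fell and 1 rose by limma, beside 7.05% and 6.6% of all genes. The receptor Tgfbr1 rose by 0.90 ± 0.15 (SE, adjusted p = 0.0369), while the ligands Tgfb1, Tgfb2 and Tgfb3 differed by -0.01, -0.24 and 0.84 and did not pass (adjusted p = 0.964, 0.318 and 0.0746, limma). The list median was -0.04 after ET-1 and -0.03 in untreated cells.

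**Figure D4:**
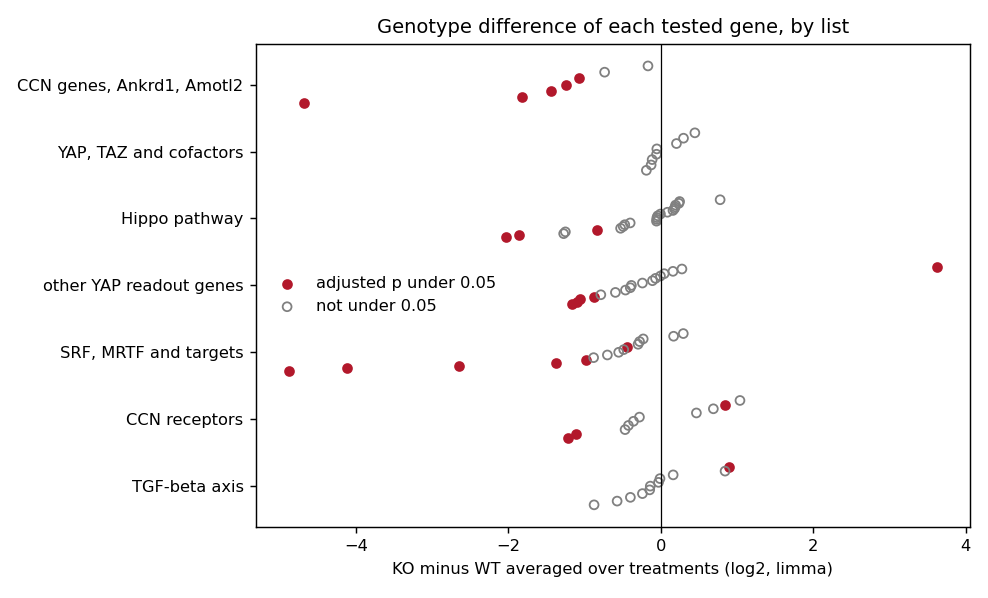
Knockout minus wild-type difference averaged over treatments (log2, limma, horizontal axis) of each gene that passed the filter, by list, with genes at an adjusted p under 0.05 filled. The YAP, TAZ and cofactor row holds 0 filled points, while 5 of 7 CCN, Ankrd1 and Amotl2 genes (Ccn3, above the filter in wild type alone, among them) and 6 of 15 genes of the SRF row are filled on the lower side.

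Markers of cell type moved with genotype as well. Of 10 fibroblast markers 8 passed the filter, 7 fell and 1 (Dcn) rose by limma, and their mean log2 level was 10.15 and 10.53 in the ET-1-treated and untreated knockout, against 12.33 and 12.22 in ET-1-treated and untreated wild type. Thy1 had log2 values of 6.85 and 8.95 in the ET-1-treated and untreated knockout, against 13.46 and 13.01 in ET-1-treated and untreated wild type. By limma Prrx1 (-4.29 ± 0.41, SE), Pdgfrb (-3.99 ± 0.22) and Twist2 (-3.64 ± 0.24) fell as well. Col1a2 and Vim also fell, by 1.11 and 0.59, but read 13.69 or more in every array, while Lum and Fap were below the filter in every array. Of 7 mesothelial markers 5 rose, with Lrrn4 at 4.56 ± 0.35 and Wt1 at 4.09 ± 0.45 (SE, limma), and 1 (Krt19) fell, and their mean log2 level was 12.47 and 12.80 in the ET-1-treated and untreated knockout, against 9.58 and 10.88 in ET-1-treated and untreated wild type. Krt19 was above the filter in wild type alone, so its call is a description. The part of the cell type markers in the lower CCN and Ankrd1 values was not tested.

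Of 7 epithelial markers, 3 rose and 0 fell, and Cdh1 was below the filter in every array. Epcam, which did not pass limma, was above it in every array, at 11.69 to 12.08. The mean level of the list was 10.58 and 10.78 in the ET-1-treated and untreated knockout, against 8.64 and 9.65 in ET-1-treated and untreated wild type. For smooth muscle 1 of 5 rose and 1 fell, with Myh11 below the filter in every array. Endothelial markers were below the filter in every array for 4 of 5 genes, Pecam1 and Cdh5 among them, and 0 passed limma. The remaining gene, Kdr, was above the filter in every array, at 10.14 to 10.63. Of 5 macrophage markers 2, Ptprc and Cd68, were below the filter in every array, 1 rose and 1 fell. The 1 that rose, Csf1r, read 11.10 and 11.36 in the ET-1-treated and untreated knockout, against 10.04 and 10.24 in ET-1-treated and untreated wild type. Of 4 neural markers measured, 2 were below the filter in every array and 1 fell. Among these calls, Dsp, an epithelial marker that rose, was above the filter in the knockout alone. Lmod1 (smooth muscle), Cd14 (macrophage) and Map2 (neural), which fell, were above it in wild type alone. These calls are descriptions.

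Genes whose 4 values, centred on their own mean, lay nearest to a member were found by Euclidean distance on the log2 scale over the 4 arrays. Nearest to Ccn1 were Kctd10 (distance 0.02), Cyp11b1 (0.05) and St6galnac4 (0.08), and nearest to Ccn2 were Nbdy (0.05), Myo10 (0.09) and Gyg (0.10). Ccn5 had Sfxn3 (0.02), Ttc19 (0.03) and Acot9 (0.06), and Ccn4 had Plpp1 (0.10), Sla (0.14) and Chic1 (0.16). Ccn3 had few genes near it, with Sspn at 0.26, Ptgs2 at 0.37 and Zfp979 at 0.38. Nearest to Ankrd1 were Rassf5 (0.07), Casp12 (0.08) and Nexn (0.11), and Amotl2 had Dnajc15 (0.02), 4930518P08Rik (0.03) and Dlk2 (0.04). With 4 points a profile, many genes come close, and the distances describe these arrays only.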

How the data were processed

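Total RNA (100 ng) was labelled with biotin in 2 cycles and hybridised to 1 array a group, per the labels' protocols. The authors deposited log2 values made with RMA (named in the submitters' processing notes, per the labels), and they run from 5.00 to 15.24. The lowest are above what RMA usually gives. Any added constant or further background step is not given in the sources used here. Whether such a step changed the folds of dim genes, Ccn3 above all, was not tested. Gene names came from the platform annotation, where 34958 probe sets had 1 gene, 932 several and 9211 were not listed. Of the first, 34754 matched RefSeq (GRCm38.p6) by Entrez identifier. Each gene was taken at its probe set with the highest mean, and genes whose highest value exceeded 8.90, the median of all values, were tested (12290).

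Genotype and treatment entered an additive fit of the 4 arrays in limma 3.58.1 (eBayes with intensity trend) in R 4.3.3, with Benjamini-Hochberg adjustment. It has 1 residual degree of freedom and a prior of 3.00. The code of the fit was tested on simulated data with set folds, with noise drawn from the variance prior of this same fit. That test checks the code and cannot check the calls made here. Other values came from Python 3.11.15. Members and lists were chosen with earlier results of these data known. Named genes were the members, fixed pathway factors, and up to 6 genes a pathway list with the largest called difference. Named cell type markers were picked after their values were seen. The genotype labels were not checked against the targeted gene. The number of arrays limits the precision. The alternatives varied the filter, the normalisation, the probe sets, eBayes and the fold.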

Additional observations from a re-analysis of the deposited data

Results flagged for a closer look

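The ET-1 difference was negative in the knockout and positive in wild type for 6 of the 7 genes, as it was for 27.8% of all genes. With 1 array a group this rests on signs alone, and the difference between genotypes was not tested. The knockout minus wild-type value on the log2 scale was -1.66 for Ccn3, -0.79 for Ccn4, -0.59 for Ccn5, -0.52 for Ccn2, -0.51 for Ankrd1 and -0.24 for Ccn1. Other probe sets gave -1.59 for Ccn3, -0.49 for Ccn4, -0.22 for Ankrd1, and 0.10, -0.42 and -0.47 for Ccn1. For Ankrd1 the knockout difference was -0.00. For Ccn1 the other 3 probe sets had the opposite sign in wild type, as did the brightest with quantile normalisation (-0.02) and the mean of its probe sets (-0.14). The Ccn3 value rests on knockout readings below the level filter. Each of these values uses the ET-1-treated wild-type array, with its large 3' to 5' gap.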

How the results depend on the processing

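Genotype calls among the members, 5 by limma with 1 probe set a gene, were 4 to 6 under other filters, normalisations, probe set means and eBayes settings. By the brightest probe sets they numbered 2, Ccn3 and Ankrd1, when every probe set above the filter was fitted together, where 24625 were tested and 2.69% passed as lower. There Ccn1, Ccn2 and Ccn4 had adjusted p-values of 0.0615, 0.0565 and 0.0804 by limma, in ranges over all settings of 0.0117 to 0.0615, 0.00395 to 0.0565 and 0.00806 to 0.0804. Without a filter Ccn4 did not pass (adjusted p = 0.0562, limma). No call was made for ET-1 under any setting. In untreated cells 3 members were at 2-fold, against 5 with quantile normalisation and 5 at 1.5-fold. For the difference of ET-1 differences the count was 1 at 2-fold and 3 at 1.5-fold. Of the other values of single genes, 309 of 317 kept their side of the threshold and 0 changed sign where called. No paired analysis was possible because each group has 1 array and the labels carry no replicate numbers, and for the same reason no replicate could be left out.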
